A study of Mus musculus with 6 samples.

Results

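The genes described here are 10 transcription factors of the oligodendrocyte lineage, chosen by name: Olig1, Olig2, Sox10, Sox8, Myrf, Nkx2-2, Nkx6-2, Tcf7l2, Zfp488 and Zfp536. All 10 were found among the 25755 genes of the deposited table. No cut-off on a measured value was applied, but earlier results of these data were known when they were chosen. Their transcripts were measured in whole optic nerves by bulk RNA sequencing. The mice were NF1flox/flox;hGFAP-Cre, and 3 of them had sham surgery (mice 1 to 3, incision without crush) while the other 3 had optic nerve crush (ON-CR, mice 4 to 6). Surgery was at 6 weeks of age, and the nerves were taken at 3 months. All 6 mice carried the same alleles. The transgene places Cre under a human GFAP promoter, which removes Nf1 from neuroglial progenitors and from the cells that arise from them, so neither group has intact Nf1 in that lineage and no wild-type nerve was sequenced. The comparison of ON-CR with sham asks how the injury, after which the study examined optic glioma formation, changes the transcripts of the nerve. The study also stained nerves of this design for Olig2 protein.

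Oligodendrocytes arise from dividing precursor cells, pass through a short newly forming stage and then wrap axons with myelin. The basic helix-loop-helix factors Olig1 and Olig2 and the high-mobility-group factor Sox10 are present throughout the lineage, and Sox10 directs the expression of Myrf, which turns on the genes of myelin once a cell has left the precursor stage. The optic nerve holds axons of retinal ganglion cells but not their cell bodies, so oligodendrocytes, astrocytes, microglia and vascular cells supply most of its RNA.

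The values are normalized gene values, that is, estimated counts divided by 1 factor per library. The libraries held 19892892 to 23621006 estimated reads in sham mice and 17414091 to 18978379 in ON-CR mice. All 10 factors were well above the floor of detection of 3 reads, and the lowest of their values was that of Zfp488 in ON-CR mouse 6 at 77 estimated reads (95% exact Poisson interval 60.8 to 96.2, for counting error only). The floxed gene Nf1 averaged 385 ± 55.1 in sham nerves and 411 ± 29.3 after ON-CR (SD, n = 3 each), which does not check the labels because both groups carry the deletion. The groups differed in sex-linked transcripts. Xist was at 2.14 to 30.9 in sham and 2708 to 6357 in ON-CR mice, and the Y-linked gene Ddx3y was at 1291 to 1645 in sham mice and at 976, 4.19 and 0 in ON-CR mice 4, 5 and 6, so sex and surgery cannot be told apart for any gene below. The library of ON-CR mouse 4 thus held Xist and Ddx3y transcripts together. Each label names a single mouse. The study's methods state more than 1 mouse per sample under RNA extraction and real-time PCR. Whether this also held for the sequenced libraries is not stated, so a library called a mouse here may hold more than 1. ON-CR mouse 6 stood apart in B and plasma cell transcripts (summed value 98667, against 394 to 2430 in the other mice) and ON-CR mouse 5 in neuron transcripts (10067, against 1918 to 4680).

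None of the 10 factors passed an adjusted p of 0.05 in the limma fit over all genes, although all 10 had a fitted log2 fold change below 0 (Olig2, Nkx2-2 and Tcf7l2 were above 0 under scaling to library size). Among all genes, 2.10% passed (1.13% lower and 0.971% higher after ON-CR, that is, 290 and 250 genes, which became 195 and 421 under scaling to library size) and 47.2% were below 0. The median log2 fold change of the factors was -0.27, against 0.03 over all genes tested. At an unadjusted p of 0.05, 3 factors passed, Sox10, Sox8 and Myrf, all lower after ON-CR, where 8.22% of all genes passed in that direction. The filter of the study's methods, an unadjusted p of 0.05 together with a fold change of at least 2, passed none of the 10 and 4.66% of all genes. The study set it on DESeq2 results without genes of low coverage, whereas here it was set on the limma fit over all genes. A stricter filter, stated in the study's results, was not applied here. With voom and sample quality weights, 0 factors passed an adjusted p of 0.05 as well. Fewer cells of this lineage and less of each transcript per cell cannot be told apart in bulk RNA. Leaving out ON-CR mouse 4 brought Sox8, and no other factor, under the threshold.

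**Figure D1:**
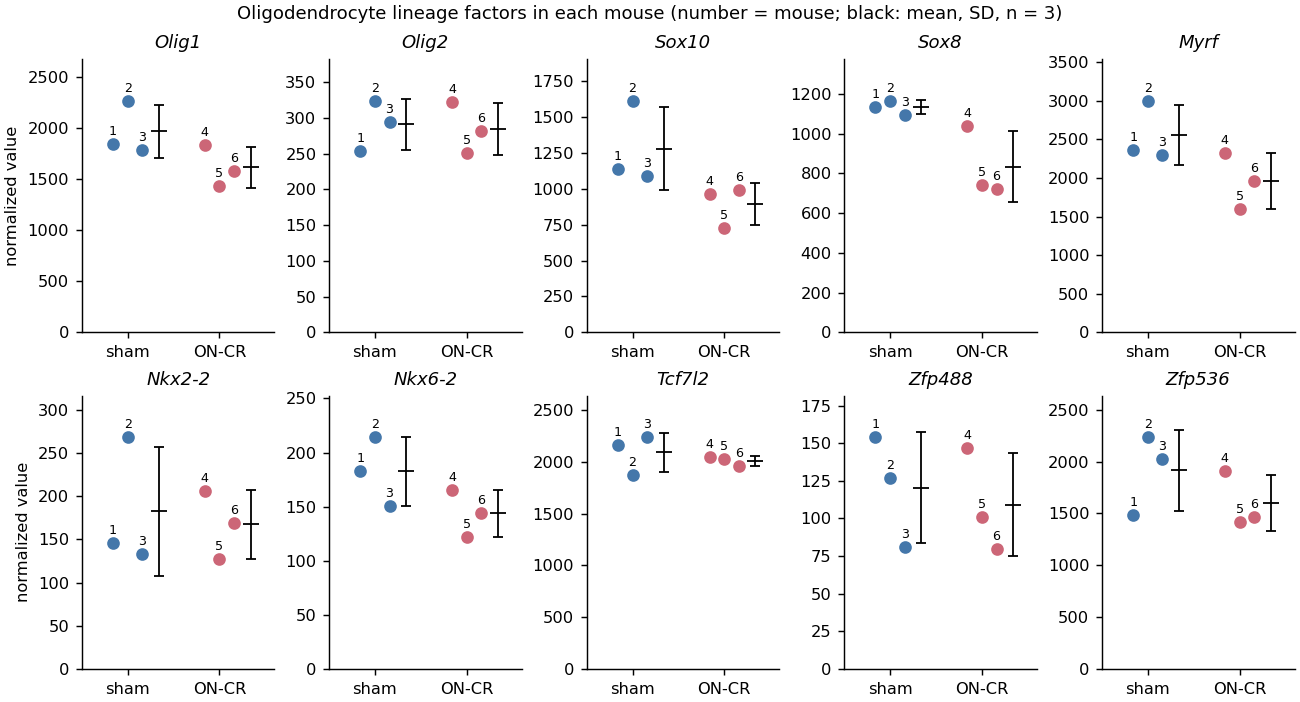
Normalized value of each factor in each mouse, with sham mice in blue, ON-CR mice in red, the mouse number above each point and the mean and SD of 3 mice in black. Every vertical axis starts at 0 and has its own scale. Sox10 and Sox8 are the 2 panels in which all ON-CR points lie below all sham points.

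Olig1 and Olig2 are neighbouring genes on the same strand of chromosome 16, and their proteins bind DNA as dimers at E-box sequences. Olig2 (ENSMUSG00000039830.9, chromosome 16 of GRCm38 from 91225457 to 91228677) was at 254, 324 and 295 in sham mice 1, 2 and 3 and at 322, 251 and 281 in ON-CR mice 4, 5 and 6. The 2 groups covered almost the same range. Its log2 fold change was -0.03 (limma, adjusted p = 0.952, standard error 0.17), with a 95% interval of the fold from 0.759 to 1.26. Olig1 (ENSMUSG00000046160.6, from 91269772 to 91271933, 41094 bases beyond the end of Olig2) was at 1849, 2268 and 1785 in sham mice and at 1832, 1437 and 1585 in ON-CR mice. ON-CR mouse 4 lay within the sham range, while mice 5 and 6 lay below it. The log2 fold change was -0.28 (limma, adjusted p = 0.354, standard error 0.14). Gm15966, on the other strand, overlaps the single exon of Olig1 and was at 38.6 or less in every library, and the sources used here do not state whether the counting used strand.

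Sox10 and Sox8 belong to the SoxE family, and Sox8 is known to share binding sites with Sox10 in this lineage. These were the 2 factors whose groups did not overlap, with every ON-CR mouse below every sham mouse, a pattern seen in 11.0% of all genes (21.6% with either direction). Sox10 (ENSMUSG00000033006.10, chromosome 15 from 79154908 to 79165240) was at 1139, 1614 and 1087 in sham mice and at 966, 730 and 993 in ON-CR mice. The highest ON-CR mouse was close to the lowest sham mouse, and sham mouse 2 was far above the rest. Its log2 fold change was -0.50 (limma, adjusted p = 0.201, standard error 0.18), with a 95% interval of the fold from 0.536 to 0.928. Sox8 (ENSMUSG00000024176.10, chromosome 17 from 25565892 to 25570686) was at 1135, 1165 and 1095 in sham mice, the narrowest spread of the 10 factors in that group relative to the mean, and at 1040, 742 and 719 in ON-CR mice. ON-CR mouse 4 was nearest to the sham range. The log2 fold change of Sox8 was -0.46 (limma, adjusted p = 0.17, standard error 0.15), and without ON-CR mouse 4 it was -0.63 with an adjusted p of 0.0499 by limma. Over the 14 other settings tried, its adjusted p by limma ran from 0.0499 to 0.446. The antisense gene 2810468N07Rik, which overlaps exons of Sox8, has no row in the table.

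Sequences before the annotated start of Olig2 and of Sox8 are shown because these were the factor with the smallest and the factor with the lowest-p difference between the groups. Both are from RefSeq on GRCm38.p6, 5′ to 3′ on the strand of the gene, and 7 of the 10 factors have an entry in that table, a window of 250 bases before the RefSeq start. For Olig2 the GENCODE start given above lies inside that window, so only the 157 bases before it are printed, and the other 93 bases, exonic in GENCODE, are left out. Capitals mark the CCAAT box (CCAAT or ATTGG) and the GC box (GGGCGG or CCGCCC), both strands searched and no match overlapping another.
Olig2, chr16:91225300-91225456, plus strand: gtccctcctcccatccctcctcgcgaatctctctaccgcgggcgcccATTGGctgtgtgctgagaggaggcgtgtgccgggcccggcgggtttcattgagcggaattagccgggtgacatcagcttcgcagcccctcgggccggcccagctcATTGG
Sox8, chr17:25570687-25570936, minus strand: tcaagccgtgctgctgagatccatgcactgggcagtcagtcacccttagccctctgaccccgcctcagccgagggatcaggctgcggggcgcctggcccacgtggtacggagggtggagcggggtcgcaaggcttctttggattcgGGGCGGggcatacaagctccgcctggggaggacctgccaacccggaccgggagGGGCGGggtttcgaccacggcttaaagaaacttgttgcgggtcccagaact
The whole window of Olig2 held 2 CCAAT boxes, both in the printed stretch, and 2 GC boxes, both beyond it, and that of Sox8 held 2 GC boxes and no CCAAT box. Over the 32851 promoters of the table, 33.8% held the CCAAT box and 32.7% the GC box. The E-box CAGCTG, the SOX core ACAAAG and the core CTGGCAC of Myrf had no match in either window, and 13.0%, 16.5% and 4.19% of all windows held them. A match describes these letters and is not evidence of a bound site.

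Myrf is a membrane-bound factor whose cleaved part enters the nucleus and drives myelin genes in mature cells. Myrf (ENSMUSG00000036098.15, chromosome 19 from 10208272 to 10240748) was at 2366, 3000 and 2301 in sham mice and at 2329, 1599 and 1955 in ON-CR mice. ON-CR mouse 4 was just inside the sham range, and the other ON-CR mice were lower. The log2 fold change was -0.39 (limma, adjusted p = 0.271, standard error 0.16), with a 95% interval of the fold from 0.599 to 0.975.

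Nkx2-2 and Nkx6-2 are homeodomain repressors. Nkx2-2 promotes the exit from the precursor stage, and Nkx6-2 is expressed in maturing oligodendrocytes. Nkx6-2 (ENSMUSG00000041309.17, chromosome 7 from 139579376 to 139582797) was at 183, 214 and 150 in sham mice and at 165, 122 and 145 in ON-CR mice. Mouse 4 alone of the ON-CR mice was within the sham range, and the log2 fold change was -0.34 (limma, adjusted p = 0.476, standard error 0.20). Inpp5a, whose exons overlap those of Nkx6-2 on the other strand, was at 177 to 229 in sham and 264 to 323 in ON-CR mice, and its part in the values of Nkx6-2 was not tested. Nkx2-2 (ENSMUSG00000027434.11, chromosome 2 from 147177546 to 147194243) was at 146, 268 and 133 in sham mice and at 206, 127 and 169 in ON-CR mice. Sham mouse 2 was the highest of all 6, and the groups overlapped widely. The log2 fold change was -0.08 (limma, adjusted p = 0.928, standard error 0.29), and the 95% interval of the fold, 0.609 to 1.47, was the widest but for that of Zfp488. Nkx2-2os overlaps it on the other strand and was at 34.7 to 51.3 in sham and 22.0 to 34.5 in ON-CR mice.

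Tcf7l2 is a partner of beta-catenin in Wnt signalling that marks newly forming oligodendrocytes and is also expressed in other cells. Tcf7l2 (ENSMUSG00000024985.19, chromosome 19 from 55741820 to 55933654) was at 2163, 1876 and 2235 in sham mice and at 2045, 2023 and 1958 in ON-CR mice. All 3 ON-CR values were inside the sham range. Its log2 fold change of -0.05 had the smallest standard error of the 10 (0.11, adjusted p = 0.863 by limma), with a 95% interval of the fold from 0.813 to 1.14.

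Zfp488 and Zfp536 encode zinc finger proteins. Zfp488 is a corepressor that acts with Olig2, and Zfp536 is expressed in the oligodendrocyte lineage and in neurons. Zfp488 (ENSMUSG00000044519.8, chromosome 14 from 33967070 to 33978764) was at 154, 127 and 80.8 in sham mice and at 147, 100.6 and 80.0 in ON-CR mice. Each group ranged almost equally widely, and the log2 fold change was -0.14 (limma, adjusted p = 0.876, standard error 0.30). Zfp536 (ENSMUSG00000043456.16, chromosome 7 from 37472135 to 37773641) was at 1481, 2233 and 2029 in sham mice and at 1908, 1417 and 1466 in ON-CR mice. ON-CR mice 5 and 6 were just below the lowest sham mouse and mouse 4 was within the range. The log2 fold change was -0.25 (limma, adjusted p = 0.53, standard error 0.17).

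**Figure D2:**
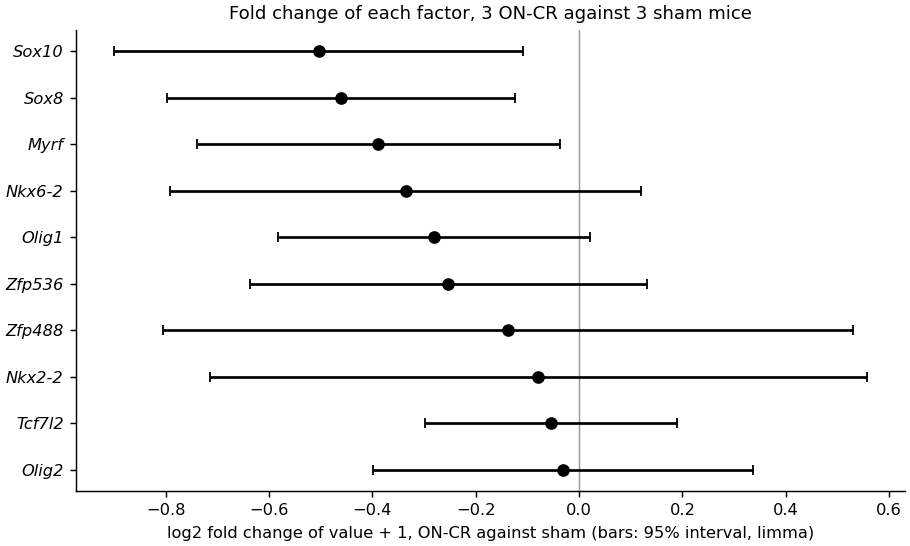
Log2 fold change of value + 1 for each factor (horizontal axis, ON-CR against sham, n = 3 each), with its 95% interval from limma. All 10 points lie below 0, from -0.50 for Sox10 to -0.03 for Olig2 (Olig2, Nkx2-2 and Tcf7l2 turn positive under scaling to library size), and the unadjusted intervals of Sox10, Sox8 and Myrf do not reach 0.

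The mice of a group differed among themselves in a way shared by most of the factors. Sham mouse 2 had the highest value of all 6 mice for 8 of the 10 factors, and ON-CR mouse 5 the lowest for 7. The summed value of the factors was 10870, 13090 and 11191 for sham mice 1, 2 and 3, against 10961, 8548 and 9352 for ON-CR mice 4, 5 and 6. ON-CR mouse 4 was thus between the sham mice, with 6 factors below the sham mean, whereas all 10 were below it in ON-CR mice 5 and 6. The Y-linked Ddx3y split the ON-CR mice in the same way, at 976 in mouse 4 against 4.19 and 0 in mice 5 and 6. A link between the 2 was not tested. The median log2 fold change of the factors became -0.15 with sham mouse 2 left out, -0.19 with ON-CR mouse 5 left out and -0.38 with ON-CR mouse 4 left out.

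Olig1, Nkx6-2 and Myrf followed each other most closely over the 6 mice. Likeness was measured as the root-mean-square difference of the log2 deviations from the sham mean, which was 0.085 for Olig1 and Nkx6-2, 0.085 for Myrf and Nkx6-2 and 0.097 for Olig1 and Myrf. The neighbours Olig1 and Olig2 differed by 0.19. Sox10 and Zfp488 were the least alike pair, at 0.47. Outside the list, the 5 genes with a mean value of at least 50 that lay nearest to the mean profile of the 10 factors were Tpst2, Zdhhc24, Prox1, Gpd2 and Spsb1, at 0.024 to 0.050. For single factors the nearest gene was Rer1 for Olig1 (0.034), Glns-ps1 for Olig2 (0.032), Slc16a4 for Sox10 (0.066), Ccz1 for Sox8 (0.043) and Phldb1 for Myrf (0.053). With 6 libraries and so many genes, close profiles of this kind describe these mice only.

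Per length of transcript, Olig1 was the most abundant factor. Values per kb of annotated exon were 910 ± 121 for Olig1, 419 ± 95.3 for Sox10 and 363 ± 11.3 for Sox8 in sham mice (SD, n = 3). Below them came Myrf, Tcf7l2, Zfp536, Olig2, Nkx6-2 and Nkx2-2, and the lowest was Zfp488 at 28.0 ± 8.59 per kb. The order of the means was the same in ON-CR mice, where Olig1 was at 748 ± 92.4 and Zfp488 at 25.4 ± 7.93 per kb (SD, n = 3). In sham mice the per-kb ranges of neighbours in this order overlapped for Sox10 and Sox8, Tcf7l2 and Zfp536, Olig2 and Nkx6-2, and Nkx6-2 and Nkx2-2. In ON-CR mice they overlapped for Sox10 and Sox8, Sox8 and Myrf, Myrf and Tcf7l2, and Nkx6-2 and Nkx2-2. Olig2, which lay at 115 ± 14.0 per kb in sham mice, was far below its neighbour Olig1 on this scale, and their ranges did not overlap in either group.

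The transcripts of mature oligodendrocytes, among them those that Myrf and Sox10 are known to drive, were lower after ON-CR. Of 15 such genes, 11 fell at an adjusted p of 0.05 by limma, where 1.13% of all genes fell, and the median log2 fold change was -0.87. The group ranges did not overlap for 13 of the 15, all lower after ON-CR, a pattern seen in 11.0% of all genes. Mbp, which encodes myelin basic protein, averaged 1058870 ± 240939 in sham nerves and 389019 ± 22111 after ON-CR (SD, n = 3 each), with a log2 difference of -1.42 (limma, adjusted p = 0.0117). Hapln2, a link protein of the nodal matrix, had a log2 difference of -3.08 (limma, adjusted p = 0.00264). Mbp lost its call without sham mouse 2 or ON-CR mouse 6. The count of 11 was 1 without sham mouse 2, 1 without ON-CR mouse 6 and 5 without sham mouse 1, while the median stayed between -0.96 and -0.74 whichever mouse was left out. The fall of mature oligodendrocyte genes was known from earlier work on these data when the factors were chosen.

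**Figure D3:**
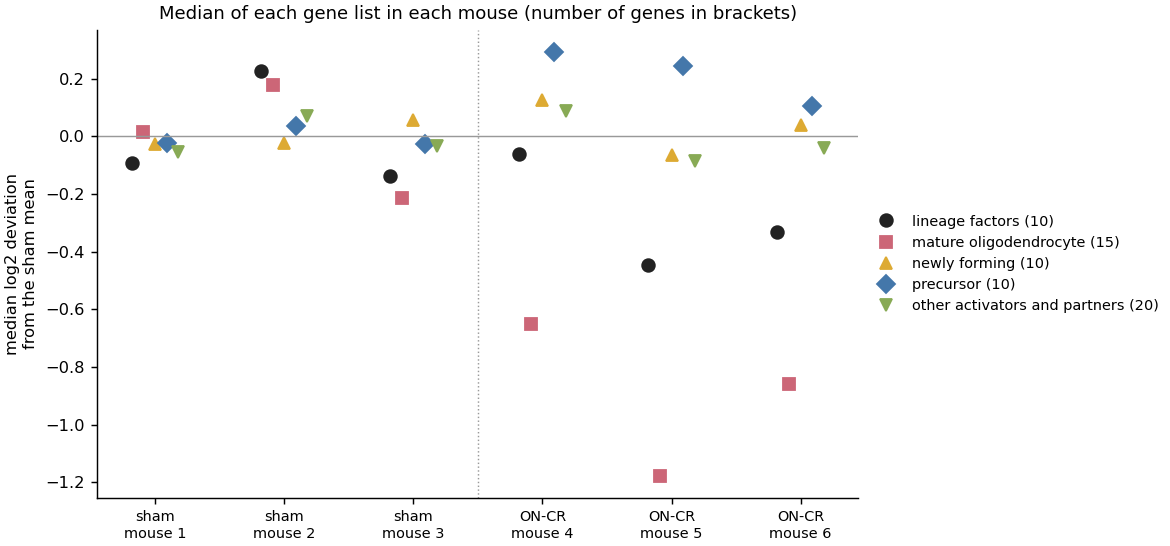
Median log2 deviation from the sham mean (vertical axis) of 5 gene lists in each of the 6 mice. The mature oligodendrocyte genes are at -0.65, -1.18 and -0.86 in ON-CR mice 4, 5 and 6, and the lineage factors at -0.06, -0.45 and -0.33.

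Within a library, the ratio of a factor to the mature genes does not depend on the scaling between libraries. Olig2 stood at a log2 ratio of -6.39, -6.25 and -5.96 to the mean of the 15 mature genes in sham mice 1, 2 and 3 and at -5.27, -5.16 and -5.24 in ON-CR mice 4, 5 and 6. The ratio was therefore higher in every ON-CR mouse, by 0.98 on the log2 scale. For Myrf the log2 ratio went from -3.07 ± 0.09 to -2.45 ± 0.04 (SD, n = 3 each), a difference of 0.62. Sox10 had the smallest difference, 0.51. All 10 factors had a higher ratio in every ON-CR mouse than in any sham mouse, each at p = 0.1 in the exact permutation test (two-sided), the smallest that 3 against 3 allows, and an adjusted p of 0.1 over the 10 ratios. The 10 ratios share their reference, which fell, and 67.0% of all genes had a ratio of this kind, so the count shows nothing particular to the factors. Single mature genes also overlapped the factors in their own log2 fold changes, with Trf at -0.51, Cldn11 at -0.48, Aspa at -0.46 and Opalin at -0.44, against -0.50 for Sox10 and -0.46 for Sox8 (these 4 mature genes, none of which passed, were chosen after their values were seen).

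Set against Olig2 in the same library, 4 factors had groups that did not overlap. Olig1, Sox10, Sox8 and Myrf had a lower ratio to Olig2 in every ON-CR mouse than in any sham mouse, where 7.49% of all genes had, and none was higher in that way, where 9.52% of all genes were. Their differences on the log2 scale were -0.25 for Olig1, -0.47 for Sox10, -0.43 for Sox8 and -0.36 for Myrf. For Sox10 the log2 ratio to Olig2 was 2.16, 2.31 and 1.88 in sham mice 1 to 3, against 1.58, 1.54 and 1.82 in ON-CR mice 4 to 6. Each of these 4 had an exact permutation p of 0.1 (two-sided, n = 3 each) and an adjusted p of 0.225 over the 9 ratios, so they did not pass. The other 5 ratios overlapped between the groups, with differences of -0.30 for Nkx6-2, -0.22 for Zfp536, -0.11 for Zfp488, -0.05 for Nkx2-2 and -0.02 for Tcf7l2. All 9 ratios share their reference, so they are not separate results. Olig2 had the highest fitted log2 fold change of the 10 factors (-0.03), so every difference was below 0 by construction. Sox10 and Sox8 already did not overlap on their own values.

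**Figure D4:**
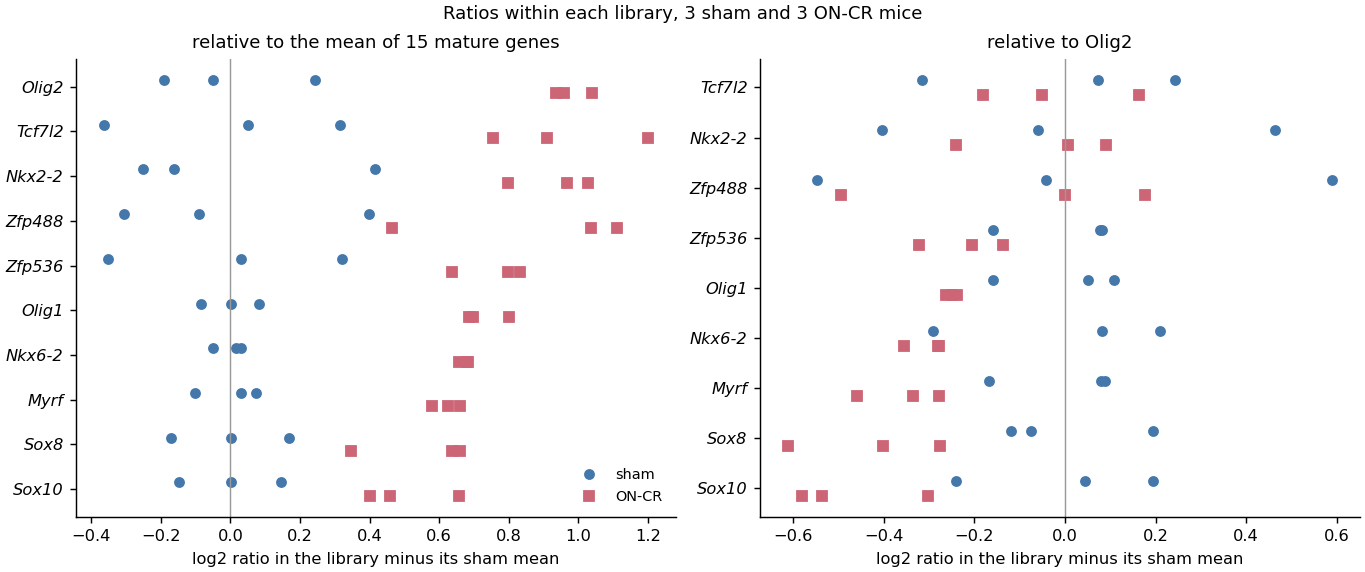
Log2 ratio of each factor to the mean of 15 mature oligodendrocyte genes (left) and to Olig2 (right) in each library, less the mean of the 3 sham libraries; circles are sham and squares ON-CR mice. On the left every ON-CR point lies above every sham point of the same factor, and on the right 4 of 9 factors have all ON-CR points below all sham points.

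Other regulators of the lineage were taken from lists written by hand. Of 20 further activators and partners, 0 passed in either direction by limma, and the median log2 fold change was -0.02. At an unadjusted p of 0.05, 2 of the 20 passed, where 15.6% of all genes did. The 2 most abundant were Tcf4, an E protein that pairs with Olig factors, with a log2 difference of 0.01 (limma, adjusted p = 0.986), and Sox9, a SoxE factor of astrocytes and precursors, with 0.29 (adjusted p = 0.322). Of 15 inhibitors of differentiation, 3 fell, 1 rose and 11 did not pass, with a median of 0.03 (over all genes, 1.13% fell and 0.971% rose). Those that fell were Hes5, a Notch target, at a log2 difference of -2.30 (limma, adjusted p = 0.0256), Tfeb, a regulator of lysosomal genes, at -0.97 (adjusted p = 0.0336), and the receptor Gpr37 at -0.78 (adjusted p = 0.0388). Sox6, a SoxD factor that keeps precursors undifferentiated, rose from 673 ± 26.9 to 986 ± 20.9 (SD, n = 3 each), a log2 difference of 0.55 (limma, adjusted p = 0.0355). Each of these 4 calls was lost when certain mice were left out. Sox6 lost its call whichever mouse it was, Hes5 without sham mouse 2 or 3 or ON-CR mouse 6 and also under voom, Tfeb without sham mouse 1 or 2 or ON-CR mouse 6, and Gpr37 without any 1 sham mouse or ON-CR mouse 6.

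Among markers of the earlier stages of the lineage, few genes passed (over all genes, 1.13% fell and 0.971% rose). Of 10 precursor markers, 2 rose, 0 fell and the median log2 fold change was 0.20, with summed values of 20010 to 23632 in sham and 23915 to 26048 in ON-CR mice. Those that rose were Sox6 and Lhfpl3, the latter from 1023 ± 17.7 to 1569 ± 210 (SD, n = 3 each), a log2 difference of 0.61 (limma, adjusted p = 0.0393, and above 0.05 without any 1 mouse but ON-CR mouse 5). Of 10 markers of newly forming oligodendrocytes, 1 fell and 0 rose, with a median of 0.06, close to the 0.03 of all genes. Their summed value was lower in every ON-CR mouse (13418 to 17180) than in any sham mouse (20128 to 23859), and the groups did not overlap for 3 genes that were lower and 1 that was higher. The 1 gene that passed was Bcas1, at a log2 difference of -0.86 (limma, adjusted p = 0.0157, and above 0.05 without sham mouse 1, sham mouse 2 or ON-CR mouse 6). The difference between these lists and the factors was not tested.

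Some of the factors are also expressed outside the lineage, Sox10 in Schwann cells, melanocytes and glands and Tcf7l2 in several cell types, so the markers of other cells are given beside them. At the adjusted threshold used for these counts, 1.13% of all genes fell and 0.971% rose. Of 9 measured Schwann cell markers, 1 rose and 0 fell, and their summed value was 8201 to 9510 in sham and 6285 to 8634 in ON-CR mice. The gene that rose was Egr2, at a log2 difference of 2.04 (limma, adjusted p = 0.025), which is also expressed in macrophages. That call was lost without any 1 of 5 of the mice, that is, all but ON-CR mouse 5. Of 5 measured melanocyte markers none passed, with summed values of 416 to 542 in sham and 437 to 469 in ON-CR mice. The 9 measured markers of secretory and airway epithelium summed to 1711 to 10671 in sham and 1320 to 7559 in ON-CR mice, with 1 gene lower (Cdh1, limma adjusted p = 0.0498, above 0.05 in 11 of the 14 alternatives). Of 10 microglia and macrophage markers, 4 rose and 0 fell (C1qa, Aif1, Trem2 and Cd68, the last with a log2 fold change of 1.80), and their summed value went from 16400 to 21194 in sham to 22615 to 34231 in ON-CR mice. Cd68 passed whichever mouse was left out, while Trem2 did not without ON-CR mouse 6, C1qa without that mouse or sham mouse 1 or 2, and Aif1 without any mouse but ON-CR mouse 5. The 10 astrocyte markers summed to 225321 to 278398 in sham and 292348 to 323314 in ON-CR mice, although the only gene called was S100b, which fell by 0.75 on the log2 scale and is also a gene of oligodendrocytes. S100b did not pass without sham mouse 1 or 2 or ON-CR mouse 4 or 6. None of the 10 neuron markers, the 8 B and plasma cell markers or the 8 fibroblast and endothelium markers passed, the last with summed values of 16393 to 19892 in sham and 11433 to 16947 in ON-CR mice. The part of these cells in the values of the factors was not tested.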

How the data were processed

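Total RNA of perfused optic nerves was sequenced in 6 libraries. Per the study's methods and the labels, the authors ran DRAGEN for alignment and quantification, used Partek Flow 10.0 with Ensembl annotation of mm10 and normalized by the median. The signal per gene that the authors deposited is therefore estimated counts divided by 1 factor per library. The value of 1 read was read off the commonest small values of a library, and division by it gave estimated reads, of which 65.1% to 67.7% were whole within 0.01 read. The unit was taken from the values, and estimated reads served only for depth, the floor of 3 reads and voom. No count model was run, although the study tested counts.

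Values were tested as log2(value + 1), which understates changes of low genes, with limma 3.58.1 in R 4.3.3 (mean-variance trend, Benjamini-Hochberg adjustment over 25755 genes, no filter). Within-library ratios were tested with a two-sided exact permutation test over mice (scipy 1.17.1). Positions, exon lengths and overlaps are from GENCODE M21 on GRCm38, the assembly of mm10, and 97.2% of symbols matched. Each library is labelled as 1 mouse. Every gene in the table had at least 10 estimated reads over the 6 libraries.

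The 10 factors and all gene lists were chosen with earlier results of these data known. Named genes were the factors, the called genes of each list (with over 4 called, the 2 largest in each direction, and with none called, the 2 most abundant), the nearest genes by likeness, Xist and Ddx3y. Nf1, the overlapping genes, and the Olig2 and Sox8 promoters were added after values were seen, as were the promoter motifs. Alternatives were 3 other scalings, pseudocounts 2 and 0.1, a mean value of at least 10, a robust fit, voom with sample quality weights, and leaving out each mouse.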

Additional observations from a re-analysis of the deposited data

How the results depend on the processing

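No factor passed an adjusted p of 0.05 by limma under any of the 3 other scalings, either pseudocount, the filter on a mean value of at least 10, the robust fit or voom. With each mouse left out, 0 to 1 factors passed (Sox8, without ON-CR mouse 4), and the median log2 fold change of the factors ran from -0.38 to -0.15. Over all genes 540 passed that threshold, and 67 to 854 with each mouse left out. The count of mature oligodendrocyte genes that fell was 11, and 1 to 10.

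Scaling to library size moved the median of all genes from 0.03 to 0.15 and that of the factors to -0.14, which is -0.29 relative to all genes against -0.30 as reported. With it 421 genes rose and 195 fell, against 250 and 290 as reported, and the fitted log2 fold change turned positive for Olig2 (0.097), Nkx2-2 (0.049) and Tcf7l2 (0.074). With each mouse left out, the fitted change ran from -0.126 to 0.0567 for Olig2 (positive without sham mouse 2 or ON-CR mouse 5), from -0.267 to 0.234 for Nkx2-2 (the same mice) and from -0.398 to 0.0627 for Zfp488 (sham mouse 1 or ON-CR mouse 6). The ratio to Olig2 ran from -0.249 to 0.184 for Nkx2-2 (positive without sham mouse 2 or ON-CR mouse 5), from -0.181 to 0.0981 for Tcf7l2 (sham mouse 1, sham mouse 3 or ON-CR mouse 4) and from -0.38 to 0.189 for Zfp488 (sham mouse 1 or ON-CR mouse 6). None of these was past a threshold, and the cause was not tested. The signs of Sox10, Sox8, Myrf, Nkx6-2, Olig1 and Zfp536, and of all ratios to the mature genes, held in every alternative run. No paired analysis was possible because the mice carry different numbers in the 2 groups. Every factor had at least 77 estimated reads in each library. With 3 mice a group, the unadjusted intervals above give the range of each fold change, not the smallest change that could have passed.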
